A study of Mus musculus with 12 samples.

Results

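The 10 genes described here are the interferon-induced Ifit, Oas and Mx genes Ifit1, Ifit2, Ifit3, Ifit3b, Oas2, Oas3, Oasl1, Oasl2, Mx1 and Mx2. Each was chosen by its symbol in the probe annotation and read from the probe set with the highest mean over the arrays, so that they made up 10 of 19505 genes with a symbol of their own. RNA came from alveolar macrophages that had been taken from the lungs of male C57 Black mice with magnetic beads carrying an antibody to Siglec-F, and it was hybridised to Clariom S mouse arrays. The 9 resected arrays were from mice killed 1, 3 or 7 days after resection of 70% of the liver, with 3 arrays for each day, and the 3 control arrays were from mice with an intact liver. The labels name the 3 arrays of a group as biological replicates, and p-values measure the spread between them. All values are log2 signals per probe set as the authors deposited them, and every difference is a difference of log2 signals.

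Type I interferons are secreted proteins that bind the receptor pair Ifnar1 and Ifnar2, which activates the kinases Jak1 and Tyk2. These kinases phosphorylate Stat2, which acts with Irf9 at the interferon-stimulated response element in the promoters of interferon-induced genes. In uninfected tissue a low, constitutive production of interferon-beta keeps some of these genes expressed, which is called tonic signalling, and in the lung alveolar macrophages are known as a source of interferon during viral infection. Ifit proteins bind viral RNA, Oas proteins make short oligoadenylates that activate the nuclease RNase L, and Mx proteins are dynamin-like GTPases that block viral replication. The Mx1 gene of C57BL/6 and many other laboratory strains is known to be truncated.

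Each array carries 5222 probe sets for introns, and the level below which 95% of them lay served as a background limit; it lay between 5.01 and 5.69 over the 12 arrays. Of the 10 genes, 1 exceeded that limit on all 12 arrays, 3 did so on some arrays and 6 on none. Oasl2 was the gene above the limit on 12 of 12 arrays. Ifit3 exceeded it on 4 arrays, which were the 3 intact arrays and day 3 replicate 1. Ifit1 and Ifit3b each exceeded it on 2 intact arrays and on no resected array. Ifit2, Oas2, Oas3, Oasl1, Mx1 and Mx2 stayed at or below it on every array. For those 6 genes signal could not be told from background in any group, so that a tonic interferon programme could not be read from them. Whether the 10 genes moved as 1 set could not be told either, since pairs with a gene near background can correlate weakly for lack of signal. Over the 45 pairs of the 10 genes, Pearson correlations across the 12 arrays ran from -0.51 to 0.94 with a median of 0.11, and 6 pairs exceeded 0.7. Those 6 were the pairs formed by Ifit1, Ifit3, Ifit3b and Mx2, which share their arrays and group differences.

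**Figure D1:**
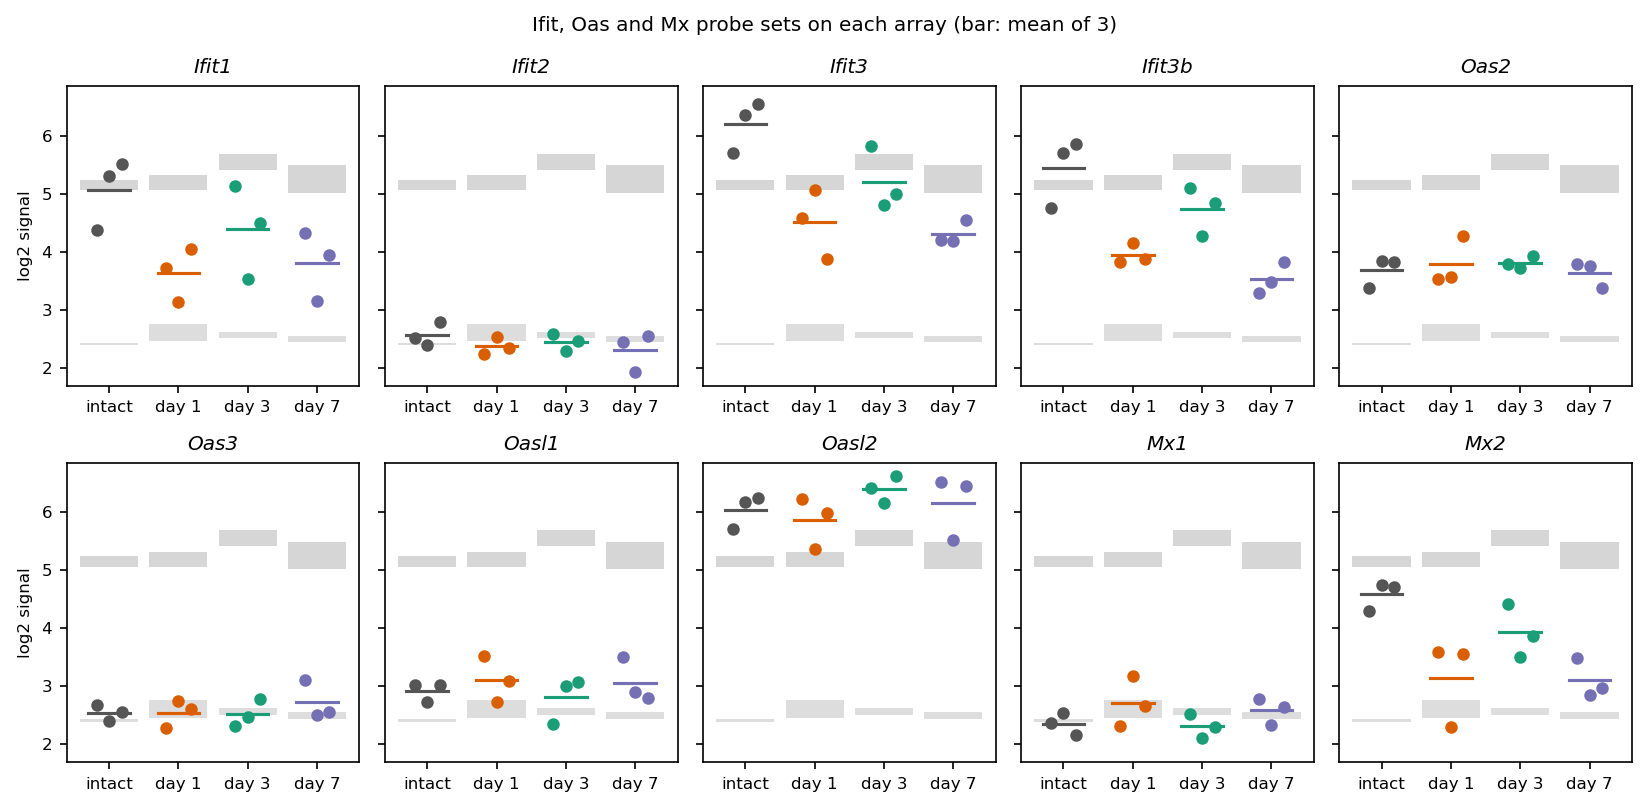
Log2 signal of each of the 10 genes (1 panel per gene, vertical axis in log2 units) on every array of the intact, day 1, day 3 and day 7 groups, with 1 point per array and the mean of 3 as a bar; the grey bands give the range over the arrays of a group of the intron controls' median (lower band) and 95% limit (upper band). Ifit1, Ifit3, Ifit3b and Mx2 have all 3 points of day 1 and of day 7 below all 3 intact points, and Oasl2 is the gene above the limit on all 12 arrays.

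Arrays differed in ways that touch these genes. The hybridisation control bioB, which is added in fixed amount, had 8.62 to 10.3 on the day 1 arrays, 7.44 to 7.83 on the day 3 arrays and 8.19 to 8.55 on the day 7 arrays, against 7.53 to 7.72 on the intact arrays, so it was high on the days at which Ifit1, Ifit3, Ifit3b and Mx2 were low; its part in the result was not tested. On 3 arrays (day 1 replicate 2, day 3 replicate 1 and day 7 replicate 2) exon controls were weakly separated from intron controls, with an area under the curve of 0.809 to 0.837 against 0.852 to 0.888 on the other arrays. Day 3 replicate 1 and day 7 replicates 2 and 3 carried signal of dap, a control added at labelling.

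The sequences before the gene starts are shown for Ifit1, Ifit3 and Ifit3b, which with Mx2 differed most between resected and intact arrays. Also shown is that of Oasl2, which had signal above background and overlapped the intact group at every day. RefSeq promoters of the GRCm38.p6 assembly matched 7 of the 10 genes; Oas2, Mx1 and Mx2 had no entry. The 250 bases before the start are given 5′ to 3′, with matches to the core of the interferon-stimulated response element in capitals. They lie at chr19:34640639-34640888 (plus strand) for Ifit1, chr19:34583279-34583528 (plus strand) for Ifit3, chr19:34607707-34607956 (plus strand) for Ifit3b and chr5:114896684-114896933 (plus strand) for Oasl2.
Ifit1: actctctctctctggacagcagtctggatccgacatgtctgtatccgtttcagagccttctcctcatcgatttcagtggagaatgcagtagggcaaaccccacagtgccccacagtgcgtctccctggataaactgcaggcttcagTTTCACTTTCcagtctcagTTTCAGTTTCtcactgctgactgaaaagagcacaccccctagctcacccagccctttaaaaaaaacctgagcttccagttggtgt
Ifit3: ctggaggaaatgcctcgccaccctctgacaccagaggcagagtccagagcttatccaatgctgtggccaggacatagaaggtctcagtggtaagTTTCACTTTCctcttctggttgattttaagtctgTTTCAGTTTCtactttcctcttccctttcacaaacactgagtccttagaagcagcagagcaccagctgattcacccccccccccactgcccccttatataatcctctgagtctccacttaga
Ifit3b: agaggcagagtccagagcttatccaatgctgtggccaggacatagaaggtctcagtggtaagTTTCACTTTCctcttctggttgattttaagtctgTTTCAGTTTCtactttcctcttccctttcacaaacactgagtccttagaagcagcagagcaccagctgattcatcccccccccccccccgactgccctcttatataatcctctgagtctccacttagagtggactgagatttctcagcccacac
Oasl2: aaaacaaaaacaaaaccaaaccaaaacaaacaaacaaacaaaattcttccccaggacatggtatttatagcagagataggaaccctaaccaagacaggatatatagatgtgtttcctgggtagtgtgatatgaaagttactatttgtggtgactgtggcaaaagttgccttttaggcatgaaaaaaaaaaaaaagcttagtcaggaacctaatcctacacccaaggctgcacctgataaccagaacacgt
The core was searched as GAAA, any 2 bases, GAAA on both strands and was found in 4 of the 7 genes. Ifit1 held 2 matches, from 104 to 95 and from 85 to 76 bases before the start. Ifit3 held 2, from 156 to 147 and from 122 to 113, and Ifit3b held 2, from 188 to 179 and from 154 to 145. Oas3 held 1, from 75 to 66 bases before the start. Over all genes with RefSeq promoters of that length, 936 of 27025 (3.46%) held at least 1 match. No match lay in the windows of Ifit2, Oasl1 and Oasl2, which says only that these letters are not in them. A gamma-activated site, searched as TTCNNNGAA on both strands, was found in 1 of the 7 genes, Ifit2, against 8.13% of all genes. Ifit2 has 2 starts, and the match lay before start 1 only. A match is a stretch of letters and was not tested for binding.

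The promoters of Ifit3 and Ifit3b were near copies of each other, with 216 of 218 aligned bases identical (99.1%) and a longest shared run of 169 bases. Between Ifit3 and Ifit1 the identity was 58.6%. Ifit3b is a close copy of Ifit3, and in RefSeq both lie with Ifit2 and Ifit1 in 1 cluster on chromosome 19. How far the 2 probe sets share signal was not tested, so Ifit3 and Ifit3b should not be counted as 2 independent measurements. Oas2 and Oas3 are neighbours on chromosome 5, as are Oasl1 and Oasl2.

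**Figure D2:**
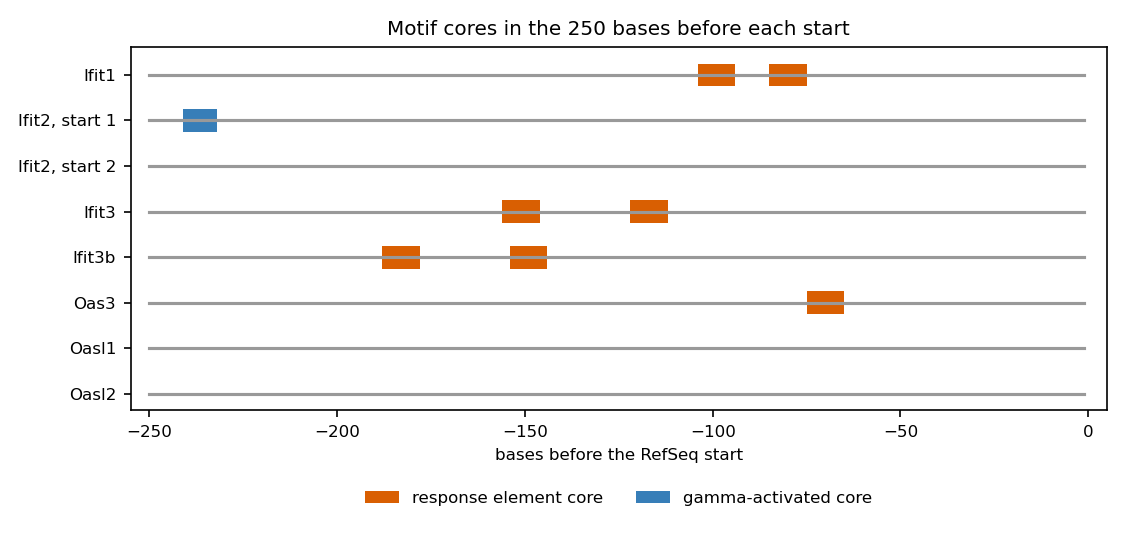
Matches to the response element core (GAAA, any 2 bases, GAAA) and to the gamma-activated site TTCNNNGAA in the 250 bases before the start of the 7 genes with a RefSeq promoter. The horizontal axis gives bases from the start, with 1 row per start, and Ifit2 has 2 starts. Ifit1, Ifit3 and Ifit3b hold 2 response element matches each, Oas3 holds 1, and the Ifit3 and Ifit3b pairs have the same spacing.

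Ifit3, Ifit3b and Ifit1 encode cytoplasmic proteins of the Ifit family: Ifit1 binds RNA whose cap lacks a methyl mark of host messenger RNA, and Ifit3 joins Ifit complexes. All 3 had lower mean signals at day 1, day 3 and day 7 than in intact mice. Ifit3 had log2 signals of 4.58, 5.06 and 3.88 on the day 1 arrays, against 5.70, 6.35 and 6.55 on the intact arrays. It had 5.82, 4.80 and 5.003 on the day 3 arrays and 4.196, 4.179 and 4.55 on the day 7 arrays. Every day 1 and day 7 array lay below every intact array, whereas day 3 replicate 1 lay within the intact range. The mean was lower than in intact mice by a log2 difference of -1.70 ± 0.33 (SE) at day 1, -0.99 ± 0.33 at day 3 and -1.89 ± 0.33 at day 7. In limma, the adjusted p over all probe sets was 0.187 at day 1, 0.944 at day 3 and 0.140 at day 7, so none of these differences passed the threshold of 0.05. Since all 3 arrays of day 1 and of day 7 lay under the background limit, the fold was taken from the intact mean to that limit. By these means Ifit3 was at least 2.02-fold lower on the day 1 arrays and at least 1.84-fold lower on the day 7 arrays. These folds take no account of the spread between arrays, so they describe these arrays and are not a lower bound for mice.

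Ifit3b had log2 signals of 3.82, 4.14 and 3.87 on the day 1 arrays, against 4.75, 5.69 and 5.87 on the intact arrays. It had 5.09, 4.26 and 4.83 at day 3 and 3.29, 3.48 and 3.83 at day 7. The day 1 and day 7 arrays again lay below all intact arrays, and the day 3 arrays lay above all day 1 and all day 7 arrays while overlapping the intact range. The differences from intact mice were -1.49 ± 0.29 at day 1, -0.71 ± 0.29 at day 3 and -1.91 ± 0.29 at day 7. With an adjusted p of 0.185 at day 1 and 0.0857 at day 7, neither passed in limma, although the second was the smallest among the 10 genes for a single day. With the fold taken to the background limit as for Ifit3, Ifit3b was at least 1.19-fold lower on the day 1 arrays. On the day 7 arrays it was at least 1.08-fold lower, and for day 3 no fold can be given. These folds likewise take no account of the spread between arrays. The calls depended on which arrays entered. Leaving out intact replicate 1 gave -2.25 at day 7 with an adjusted p of 0.018, and leaving out day 1 replicate 2, which enters through the pooled spread, gave an adjusted p of 0.036 for Ifit3b and 0.045 for Ifit3 at day 7.

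Ifit1 had log2 signals of 3.72, 3.14 and 4.06 on the day 1 arrays, against 4.38, 5.31 and 5.52 on the intact arrays. It had 5.14, 3.54 and 4.50 at day 3 and 4.33, 3.16 and 3.94 at day 7. The day 1 arrays lay below all intact arrays, and the lowest intact array, at 4.38, lay just above the highest day 7 array, at 4.33. The day 3 arrays overlapped both neighbours. The differences from intact mice were -1.43 ± 0.43 at day 1, -0.68 ± 0.43 at day 3 and -1.26 ± 0.43 at day 7, with limma adjusted p-values of 0.367, 1.000 and 0.677. The day 3 difference was -0.25 without day 3 replicate 2. The Ifit1 mean of the intact arrays, at 5.07, lay below the mean background limit of each day's arrays, so no fold is given for Ifit1. Ifit2, which promotes apoptosis and binds RNA, lies in the same cluster and had group means between 2.31 and 2.57. Its signal exceeded between 11.03% and 66.6% of the intron controls on an array, and its differences from intact mice were -0.20, -0.12 and -0.26 at days 1, 3 and 7.

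Mx2 encodes a GTPase of the Mx family. It had log2 signals of 3.59, 2.30 and 3.56 on the day 1 arrays, against 4.29, 4.75 and 4.72 on the intact arrays. It had 4.42, 3.51 and 3.86 at day 3 and 3.49, 2.84 and 2.98 at day 7. As for the 3 Ifit genes, day 1 and day 7 lay entirely below intact and the day 3 arrays overlapped intact; all Mx2 day 3 arrays also lay above all day 7 arrays. The differences from intact mice were -1.43 ± 0.34 at day 1, -0.65 ± 0.34 at day 3 and -1.48 ± 0.34 at day 7, with limma adjusted p-values of 0.270, 1.000 and 0.314. Mx2 did not exceed the background limit in any group, so no fold is given for it. Mx1 had 2.31, 3.18 and 2.66 on the day 1 arrays, against 2.37, 2.54 and 2.16 on the intact arrays. Its groups overlapped at every day, with differences of 0.36, -0.05 and 0.23 at days 1, 3 and 7.

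Oasl2 belongs to the Oas family and has ubiquitin-like domains. It had log2 signals of 6.22, 5.37 and 5.99 on the day 1 arrays, against 5.71, 6.18 and 6.25 on the intact arrays. It had 6.41, 6.17 and 6.62 at day 3 and 6.52, 5.53 and 6.46 at day 7. Every group overlapped the intact group. The difference from intact mice was -0.19 at day 1 with a 95% interval from -0.82 to 0.45, 0.35 at day 3 with an interval from -0.28 to 0.99, and 0.12 at day 7 with an interval from -0.51 to 0.76. These intervals leave room for a moderate difference either way; at day 1 and day 7 their lower ends lie above the estimated differences of Ifit1, Ifit3, Ifit3b and Mx2. The difference between genes was not itself tested.

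The other Oas genes had signals near background. Oas2 and Oas3 make oligoadenylates, and Oasl1 is known in mice to inhibit translation of Irf7. Oas2 had group means of 3.68 in intact mice, 3.79 at day 1, 3.81 at day 3 and 3.64 at day 7, and its differences from intact mice were 0.11, 0.13 and -0.04. Oas3 differed from intact mice by -0.00 at day 1, -0.02 at day 3 and 0.18 at day 7. Oasl1 differed by 0.19, -0.11 and 0.14. All 3 genes overlapped the intact group at every day, and their signals exceeded between 34.6% and 89.9% of the intron controls on an array.

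Over the 10 genes, 7 were below intact at day 1, 8 at day 3 and 6 at day 7, with median differences of -0.19, -0.11 and -0.15 against -0.01, 0.00 and -0.01 over all 22206 probe sets tested. None of the 10 passed the adjusted threshold in limma, while 0% of all probe sets did at day 1, 0.0045% at day 3 and 0.018% at day 7. With an unadjusted p under 0.05, 4 of the 10 were lower at day 1, 2 at day 3 and 4 at day 7, against 5.9%, 2.5% and 3.74% of all probe sets. Day 1 arrays lay entirely below intact arrays for 4 of the 10, against 8.94% of all probe sets. The same 4 genes, Ifit1, Ifit3, Ifit3b and Mx2, lay entirely below at day 7, against 8.15% of all probe sets. At day 3 it was 0 of the 10, against 6.68%. For Ifit3 and Mx2 that overlap came from day 3 replicate 1 alone, at 5.82 and 4.42, an array with weak control separation and dap signal. For Ifit1 and Ifit3b, day 3 replicate 3 overlapped the intact arrays as well. None of the 10 had all arrays of a day above all intact arrays, against 7.42% of all probe sets at day 1, 7.19% at day 3 and 6.11% at day 7. The 3 comparisons share the intact arrays, so that an intact array that is high for these genes enters each of them.

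With the mean of the 3 days set against intact, the limma differences were -1.53 ± 0.27 for Ifit3, -1.37 ± 0.24 for Ifit3b, -1.19 ± 0.28 for Mx2, -1.12 for Ifit1 and 0.10 for Oasl2. The adjusted p was 0.0837 for Ifit3, 0.0817 for Ifit3b, 0.222 for Mx2 and 0.503 for Ifit1; 0 of the 10 passed, against 0.045% of all probe sets, and 4 were lower at an unadjusted p under 0.05, against 4.24%. Single arrays moved these calls: Ifit3b passed without intact replicate 1 (adjusted p = 0.0352), and Ifit3 and Ifit3b passed without day 1 replicate 2 (0.0301 and 0.0442) and without day 3 replicate 1 (0.0314 and 0.0371). The F test over the 4 groups called 0 of the 10, against 0.00901% of all probe sets, and its smallest adjusted p among them was 0.171 for Ifit3b, with 4 of the 10 at an unadjusted p under 0.05, against 7.34%.

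**Figure D3:**
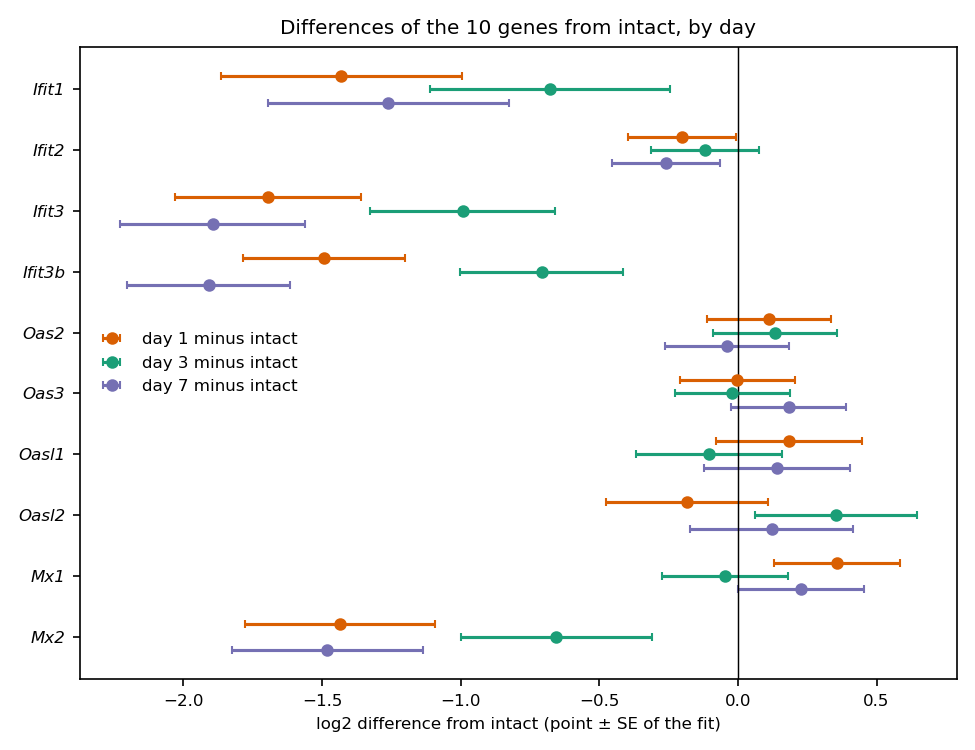
Log2 difference of each of the 10 genes for day 1, day 3 and day 7 against intact (log2 units, points with the standard error of the limma fit). Ifit1, Ifit3, Ifit3b and Mx2 lie lowest at day 1 and day 7, from -1.91 to -1.26, with values between -0.99 and -0.65 at day 3, and the other 6 lie between -0.26 and 0.36.

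The days were also compared with each other. Intact arrays do not enter these differences, but they enter the p-values through the pooled spread. Day 3 was above day 1 by 0.78 for Ifit3b, 0.78 for Mx2, 0.75 for Ifit1 and 0.70 for Ifit3, with limma adjusted p-values from 0.461 to 0.598. Ifit3b was the 1 gene of the 10 with all day 3 arrays above all day 1 arrays, against 7.03% of all probe sets, and 0 of the 10 passed the threshold, against 0%, with 2 higher at an unadjusted p under 0.05, against 6.32%. Day 7 was below day 3 by -1.20 for Ifit3b, -0.90 for Ifit3, -0.83 for Mx2 and -0.58 for Ifit1. All day 7 arrays lay below all day 3 arrays for 3 of the 10 (Ifit3, Ifit3b and Mx2), against 5.69% of all probe sets, and again 0 passed, against 0%, with 3 lower at an unadjusted p under 0.05, against 3.1%. Without the 3 weakly separating arrays, the Mx2 difference was 0.11 for day 3 against day 1 and -0.45 for day 7 against day 3, and the Ifit1 difference was 0.13 for day 3 against day 1 and 0.12 for day 7 against day 3. Without the arrays carrying dap, day 7 against day 3 gave -0.19 for Mx2 and 0.31 for Ifit1. Between day 7 and day 1 the differences of these 4 genes were -0.42 for Ifit3b, -0.20 for Ifit3, -0.05 for Mx2 and 0.17 for Ifit1, and 0 of the 10 were called, against 0%, and 0 had an unadjusted p under 0.05, against 6.74%. No gene of the 10 had all day 7 arrays below all day 1 arrays, against 4.66% of all probe sets.

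The result depended on the 3 weakly separating arrays. Without them, Ifit3 passed the limma threshold at day 1 (-1.97, adjusted p = 0.013), day 3 (-1.30, adjusted p = 0.043) and day 7 (-1.83, adjusted p = 0.008). Ifit3b (-1.88, adjusted p = 0.012) and Mx2 (-1.35, adjusted p = 0.010) then passed at day 7. Weighting arrays by quality called Ifit3 at every day and Ifit3b at day 1 and day 7, with Mx2 at day 7. Over all alternatives run, the limma adjusted p ran from 0.013 to 0.874 for Ifit3 at day 1, from 0.005 to 0.759 for Ifit3 at day 7, from 0.006 to 0.554 for Ifit3b at day 7 and from 0.005 to 1.000 for Mx2 at day 7. The limit on array separation was set with values of these data known, so these calls are a description of how the result depends on the arrays.

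The genes of the pathway were read from lists. Of 17 genes for type I and III interferons, 16 were measured, and all 16 stayed at or below the background limit on every array; 5, 5 and 7 of them were below intact at days 1, 3 and 7, with median differences of 0.09, 0.10 and 0.04, and 0 were called in limma (1, 0 and 0 lower at an unadjusted p under 0.05, against 5.9%, 2.5% and 3.74% of all probe sets). Ifnb1, the gene of interferon-beta, differed from intact mice by -0.22 at day 1, 0.04 at day 3 and -0.07 at day 7. In single genes of this list the signals were too low to tell whether interferon RNA was present.

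Of 11 receptors, kinases and transcription factors, 10, 9 and 10 were below intact at days 1, 3 and 7, with median differences of -0.52, -0.19 and -0.26 and 0 called in limma at any day; 5, 1 and 0 were lower with an unadjusted p under 0.05, against 5.9%, 2.5% and 3.74% of all probe sets. Ifnar1, a chain of the receptor, differed by -0.89 ± 0.20 at day 1 (limma adjusted p = 0.270), -0.19 at day 3 and -0.14 at day 7. Stat2, a subunit of the factor that binds the response element, differed by -1.35 ± 0.39 at day 1 (limma adjusted p = 0.338), -0.71 at day 3 and -0.63 at day 7. Irf9, the DNA-binding subunit of that factor, differed by -0.48, -0.27 and -0.32, and Irf7, which drives interferon-alpha genes and is itself interferon-induced, by -0.56, -0.76 and -0.59. Irf1 differed by -0.52, -0.58 and -0.49, and the kinase Jak1 by -0.44, 0.24 and -0.04. For Ifnar1 the day 1 arrays lay entirely below intact while the day 3 and day 7 arrays overlapped it.

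Of 40 other interferon-induced genes, 35 were measured, and 30, 26 and 31 were below intact at days 1, 3 and 7, with median differences of -0.54, -0.28 and -0.35. None passed limma's adjusted threshold, 14, 7 and 10 were lower with an unadjusted p under 0.05, against 5.9%, 2.5% and 3.74% of all probe sets, and 15, 10 and 12 of the 35 lay entirely below intact at days 1, 3 and 7, against 8.94%, 6.68% and 8.15% of all probe sets. Ccl5, a chemokine for T cells, differed by -1.16 ± 0.28 at day 1 (limma adjusted p = 0.270), -1.38 at day 3 and -1.64 at day 7 (limma adjusted p = 0.140). Slfn5, a Schlafen family gene, differed by -1.32, -0.59 and -1.87, and Xaf1, which promotes apoptosis, by -1.22, -0.68 and -0.82. Parp14, an ADP-ribosyltransferase, differed by -0.96, -0.45 and -0.70. Slfn5, Xaf1 and Parp14 had their smallest difference at day 3, as did the 3 Ifit genes and Mx2, whereas Ccl5 had its smallest at day 1.

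The remaining 4 lists had 0 genes called in limma at any day. With an unadjusted p under 0.05, the interferon-gamma axis had 5, 1 and 1 of 8 genes lower at days 1, 3 and 7 and 0 higher. By the same rule the other lists among these had from 0 to 2 genes lower and from 0 to 2 higher at a day. Over all probe sets, 5.9%, 2.5% and 3.74% were lower and 3.04%, 1.96% and 1.95% higher by that rule at days 1, 3 and 7. Of the negative regulators, 9, 6 and 6 of 10 were below intact at days 1, 3 and 7. Socs1 differed by -0.53, -0.43 and -0.69. Usp18, the protease that removes Isg15 and blocks receptor signalling, differed by -0.42, -0.59 and -0.57. The highest difference among the negative regulators was 0.82 at day 7. At that day 3 of them lay entirely below intact and 2 entirely above, against 8.15% and 6.11% of all probe sets. Of the nucleic acid sensors and adaptors, 11, 8 and 8 of 15 were below intact; Zbp1, a sensor of Z-form nucleic acid, differed by -0.57, -0.20 and -0.46, and the kinases Ikbke and Tbk1 were above intact by 0.95 and 0.39 at day 1. Of 10 other Ifit and Oas family genes, 5 were below intact at each day, and 9 never exceeded the background limit. In that list 4, 0 and 3 genes lay entirely below intact at days 1, 3 and 7, against 8.94%, 6.68% and 8.15% of all probe sets. These counts at day 1 and day 7 were close to those of the 10 Ifit, Oas and Mx genes, but the differences were smaller. Their medians were -0.01, -0.02 and -0.06 at days 1, 3 and 7. The lowest difference was -0.36 at day 1 and -0.67 at day 7, against -1.70 and -1.91 among the 10 genes. Of the genes of the interferon-gamma axis, 7, 4 and 6 of 8 were below intact. In that list the GTPase Igtp differed by -1.49, -1.25 and -1.44 and the GTPase Irgm1 by -2.15, -0.42 and -0.93. Ciita, the activator of MHC class II genes, differed by -1.05 at day 1. The highest differences in the interferon-gamma list were 0.33, 0.57 and 0.54 at days 1, 3 and 7.

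**Figure D4:**
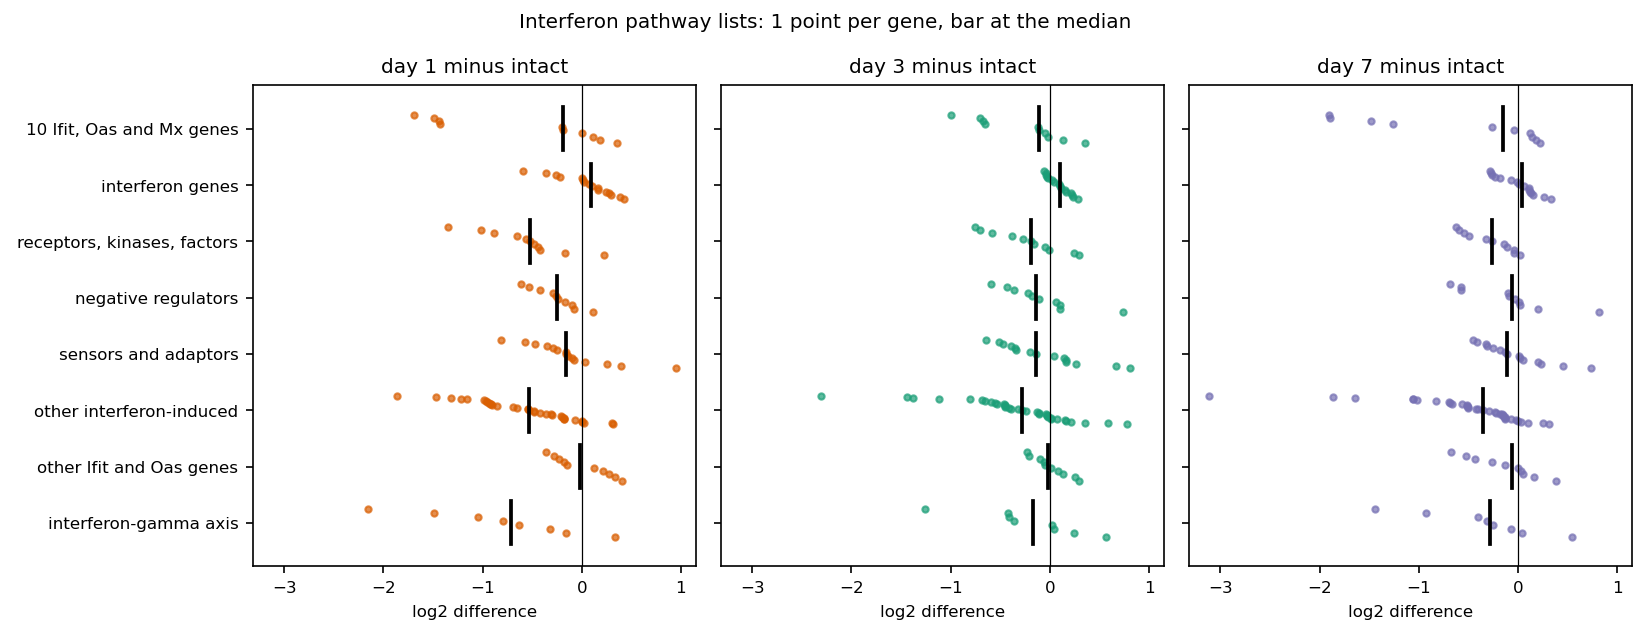
Log2 differences from intact for the genes of the 7 pathway lists and the 10 Ifit, Oas and Mx genes at day 1, day 3 and day 7 (log2 units, 1 point per gene, median marked). The list of other interferon-induced genes has 30 of 35 genes below 0 at day 1, 26 at day 3 and 31 at day 7, while the interferon genes scatter about 0.

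The cell type label was checked against markers. The 9 measured alveolar macrophage markers averaged 8.85 to 9.52 on the day 1 arrays, 9.18 to 9.29 on the day 3 arrays and 9.34 to 9.74 on the day 7 arrays, against 9.31 to 9.65 on the intact arrays. Single markers moved more, with differences from intact down to -1.06 at day 1 and -0.87 at day 3. In limma, 3, 0 and 0 of the 9 were lower at an unadjusted p under 0.05 at days 1, 3 and 7. Over all probe sets 5.9%, 2.5% and 3.74% were. Markers of other cells were also present and moved with the groups. The 9 neutrophil markers averaged 8.14 to 9.04 at day 1, 8.18 to 9.09 at day 3 and 8.64 to 9.25 at day 7, against 7.57 to 8.09 in intact mice. The 8 markers of type 2 alveolar cells averaged 4.40 to 6.60, 5.81 to 6.87 and 5.57 to 5.94 at days 1, 3 and 7, against 6.81 to 7.41. The 5 of type 1 cells averaged 4.16 to 5.20, 5.37 to 6.15 and 4.91 to 5.53, against 5.63 to 6.22. The 8 endothelial markers averaged 3.91 to 5.89, 4.84 to 6.40 and 4.77 to 5.95, against 6.12 to 7.09. The 7 fibroblast markers averaged 3.41 to 4.84, 3.81 to 4.68 and 4.005 to 4.26, against 5.31 to 6.08, and all 7 were below intact at every day, with 1 passing the limma threshold at day 3, against 0.0045% of all probe sets, and 2 at day 7, against 0.018%. Of the type 2 markers, 1 passed at day 7.

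The 8 markers of plasmacytoid dendritic cells, a main producer of interferon-alpha, averaged 3.51 to 3.71 at day 1, 3.67 to 3.84 at day 3 and 3.62 to 3.71 at day 7, against 3.83 to 4.08 in intact mice. Of these 8, 6 never exceeded the background limit, among them Siglech, and Bst2 is itself interferon-induced. The 8 markers of T and NK cells averaged 2.83 to 3.07, 2.64 to 3.05 and 2.66 to 2.79, against 3.39 to 3.68, with 7 of 8 never above the limit. Conventional dendritic cell markers were below intact in 8, 6 and 6 of 8 genes at days 1, 3 and 7, monocyte and interstitial macrophage markers in 6, 4 and 5 of 8, B cell markers in 4, 3 and 4 of 4, airway markers in 5 of 5 at each day, and eosinophil markers in 5, 2 and 2 of 6. In 8 of the 13 marker lists the group mean at day 3 was nearer to intact than at day 1 and day 7. For both alveolar cell types, endothelium, monocyte and plasmacytoid dendritic cell all these means were below intact, as for the 3 Ifit genes and Mx2. The B cell list was also below, but at 2.77 on both day 1 and day 3. In the neutrophil list the means were above intact at every day, and in the eosinophil list at day 3 and day 7. Fewer cells of a type and less RNA per cell cannot be told apart in such sorted bulk samples, and the part of these other cells in the values of the Ifit genes and Mx2 was not tested.

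**Figure D5:**
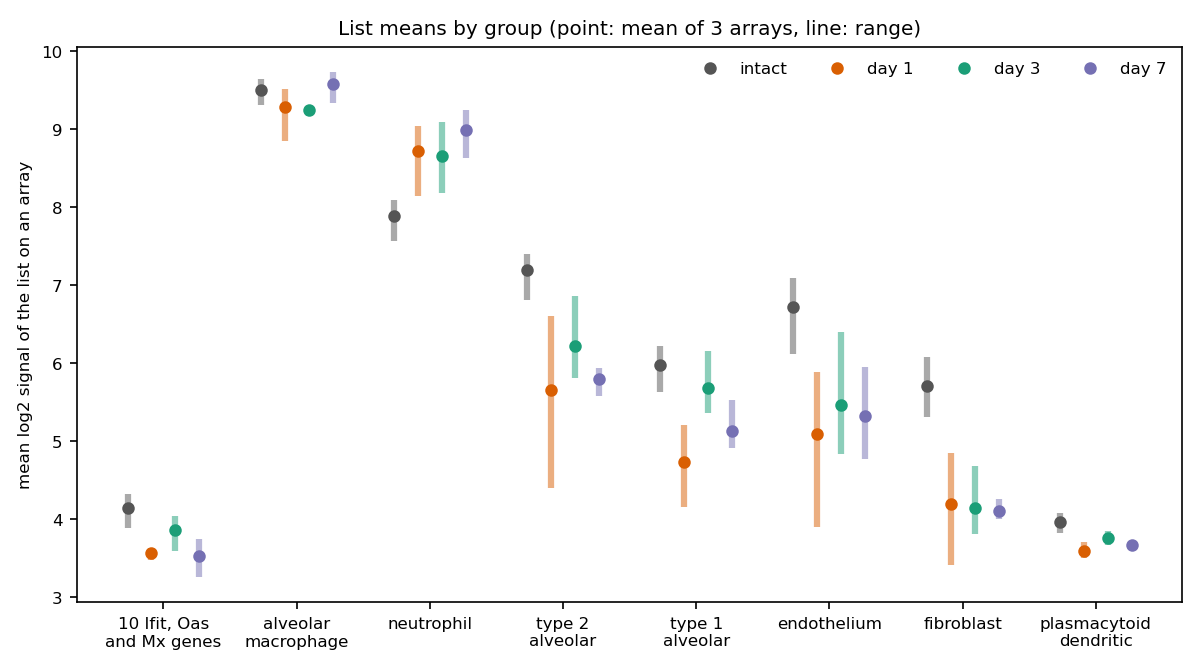
Mean log2 signal of 7 marker lists and of the 10 Ifit, Oas and Mx genes on an array (vertical axis, log2 units), with the mean of 3 arrays as a point and their range as a line for the intact, day 1, day 3 and day 7 groups. The epithelial, endothelial and fibroblast lists have their highest mean in the intact group, and the neutrophil list has its lowest there. The mean of the alveolar macrophage list lies between 8.85 and 9.74 on every array.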

How the data were processed

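RNA of Siglec-F-sorted alveolar macrophages was measured on Clariom S arrays, 9 of them from resected mice and 3 from intact mice. Per the submitters' processing notes, the deposited log2 signals were made by the authors with RMA in the Transcriptome Analysis Console; no version and no genome build are given in the sources used here. RMA corrects background, normalizes quantiles and summarises the probes of a set, which compresses differences near background. Values were used as deposited, without further normalization. Of 28846 probe sets, 6640 controls were left out of the tests and 22206 were tested; 19572 of these had 1 gene symbol and 2634 had none. No other filter was set in the main fit. The number of arrays limits the precision.

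Each comparison came from 1 linear model over all 12 arrays in limma 3.58.1 (R 4.3.3), with a term for group alone and default eBayes moderation, two-sided, with Benjamini-Hochberg adjustment over 22206 probe sets and a threshold of 0.05. The fit was tested on simulated data. No exact permutation test of 3 against 3 arrays goes below p = 0.1. The genes, pathway lists, marker lists, array limits and alternatives were chosen with earlier results of these data known, so no test was made over a list. The text names the 10 genes, genes of the receptor list and the 8 genes most correlated with the mean of the 10. In each other list only the 4 genes with the smallest p at day 1 could be named, and not all of them were. Ifnb1 and Siglech were named outside that rule, after their values were seen. Alternatives were other moderation, array weights, quantile normalization or median centring on top, a mean of at least 5 log2 units, averaging the probe sets that share a gene, only the groups compared, a replicate block, and leaving out single arrays or arrays with doubtful controls.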

Additional observations from a re-analysis of the deposited data

How the results depend on the processing

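None of the differences of Ifit1, Ifit3, Ifit3b and Mx2 from intact at day 1, day 3 or day 7 changed direction under any alternative run. Leaving out single arrays gave, at day 1, -1.97 to -1.38 for Ifit3 and -1.83 to -1.28 for Ifit3b and, at day 7, -2.14 to -1.72 and -2.25 to -1.69. Counts of called genes and probe sets were highest with array weights or without the weakly separating arrays; the cause was not tested. With array weights, the 10 genes had 2, 1 and 3 calls at days 1, 3 and 7, 4 for the pooled days and 3 in the F test, and all probe sets had 43, 298 and 402 calls, 7 for day 7 against day 3, 575 for the pooled days and 360 in the F test. Without the weakly separating arrays these were 1, 1, 3, 3 and 3 for the 10 genes, and 71, 252 and 280 probe sets, 6 for day 3 against day 1, 4 for day 7 against day 3, 395 for the pooled days and 281 in the F test; the medians of the 10 genes turned to 0.18 for day 7 against day 1 and 0.095 for day 7 against day 3. Without the labelling-control arrays those medians were 0.21 and 0.092, with 0 probe sets called at day 7, 1 for the pooled days and 0 in the F test. The main fit had 0, 1 and 4 probe sets called, 10 for the pooled days and 2 in the F test. Fitting only the groups compared called 2 of the 10 genes at day 7 (Ifit3 and Mx2), 0 probe sets at day 3 and 48 at day 7. Trend and robust moderation called 4 probe sets at day 3, 29 for the pooled days and 6 in the F test; a mean of at least 5, which leaves Ifit3 and Oasl2 of the 10, called 0 at day 3, at day 7, for the pooled days and in the F test. Quantile normalization called 4 at day 3, median centring 5 for the pooled days, and averaging a gene's probe sets 2 at day 3. Replicate numbers did not pair the arrays (correlations of deviations from -0.24 to 0.26, above 0.1 in 3 of 18 pairs); with the replicate block, 0 probe sets were called at day 3, 8 at day 7 and 0 in the F test. Leaving out single arrays gave 0 to 12 probe sets at day 1, 0 to 7 at day 3, 0 to 18 at day 7, 0 to 3 for day 3 against day 1, 0 to 3 for day 7 against day 3, 0 to 69 for the pooled days and 0 to 8 in the F test, and 0 to 2 of the 10 genes at day 7 and for the pooled days. Signs turned mostly where the main difference was small, except for Ifit1 between day 7 and day 3 (-0.58 in the main fit). Quantile normalization gave 0.040 for Oasl2 at day 1 and 0.081 for Oas2 at day 7, and median centring 0.026 for Oas3 at day 1 and 0.011 for Oas2 at day 7. Array weights gave 0.0998 for Oas3 and 0.076 for Oasl1 at day 3 and 0.148 for Ifit3 between day 7 and day 1. Without the weakly separating arrays Oasl2 was at 0.063 at day 1, Oas3 at 0.084 and Oasl1 at 0.124 at day 3, Ifit3 at 0.142 between day 7 and day 1 and Ifit1 at 0.115 between day 7 and day 3. Without the labelling-control arrays Oas3 was at 0.084 and Oasl1 at 0.124 at day 3, Oas2 at 0.102 at day 7, Mx2 at 0.341 between day 7 and day 1 and Ifit1 at 0.307 between day 7 and day 3. Leaving out single arrays gave at day 1 -0.13 to 0.24 for Oas2, -0.10 to 0.13 for Oas3, -0.018 to 0.38 for Oasl1 and -0.37 to 0.063 for Oasl2; at day 3 -0.015 to 0.21 for Oas2, -0.15 to 0.084 for Oas3, -0.24 to 0.12 for Oasl1 and -0.15 to 0.053 for Mx1; at day 7 -0.19 to 0.092 for Oas2, -0.0065 to 0.29 for Oas3, -0.077 to 0.27 for Oasl1 and -0.053 to 0.44 for Oasl2. Between day 7 and day 1 it gave -0.089 to 0.49 for Ifit1, -0.51 to 0.078 for Ifit3 and -0.47 to 0.17 for Mx2, and for Oasl2 over the pooled days -0.070 to 0.20. Signal near background limits what can be said of Ifit2, Oas2, Oas3, Oasl1, Mx1 and Mx2. It also limits Ifit1 and Ifit3b, whose resected arrays all lay under the background limit.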

Other observations

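The genes whose signal most resembled the mean of the 10 Ifit, Oas and Mx genes were taken from 5801 genes with a group mean of at least 5 in at least 1 group, by Pearson correlation over the 12 arrays. Bst2, an interferon-induced membrane protein that tethers viruses, had a correlation of 0.93 (Spearman 0.90), and Irgm2, an interferon-induced GTPase, had 0.88 (Spearman 0.91). The others were Ankrd17 at 0.95, Pkp4 at 0.92, Klf6 at 0.90, Gzma at 0.90, Cnn3 at 0.89 and Rbpms at 0.88. Gzma encodes a granzyme of cytotoxic lymphocytes and averaged 3.42 at day 1, 3.89 at day 3 and 3.22 at day 7, against 5.81 in intact mice. Of the 8 genes, 3 (Bst2, Gzma and Cnn3) passed that minimum through the intact group alone, so their likeness to genes that are high there was partly set by the minimum. The arrays share their groups, controls and processing, so such values describe these 12 arrays; with group means removed the 8 correlations ran from 0.70 to 0.86.

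Among the 10 genes themselves, Ifit3 and Ifit3b correlated at 0.94 over the 12 arrays and at 0.78 with group means removed. Ifit1 and Mx2 correlated at 0.91 and, with group means removed, at 0.82. Ifit3 and Mx2 correlated at 0.73, and at -0.02 with group means removed. Mx2 stayed at or below the background limit on every array. Whether these 2 genes also share differences between arrays of a group therefore cannot be told from these values.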
